A study of Mus musculus with 12 samples.

Results

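Introns of 100 to 199 nt are the class of short introns just above the shortest ones, and their retention was followed here through a knockdown of the splicing protein SAP30BP and its rescue by each of 2 isoforms. Members were chosen by annotated length and by measured values: a retention value in all 12 libraries and a mean over the 12 between 2% and 98%. Of 12734 introns of this length in the authors' inclusion table, 5945 had a value in every library, and 6789 lacked at least 1, of which 4508 had none. The limits on the mean then left out 3837 introns under 2% and 2 over 98%, which leaves 2106 introns in 1276 genes, of 17096 introns and 28980 splicing events that passed the same limits in all. Just inside the lower limit were introns of Flot1 and Wdr77, both with a mean of 2.00%, and just outside it introns of Chd8 and Casp2, both at 1.998%. At the upper limit, Ankrd13b at 93.6% and Solh at 97.4% were inside, and Lepre1 and Pygo2, both at 100.0%, were outside. These values describe the choice and were not tested.

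Pre-mRNA splicing starts when the 5′ splice site, the branch point, the polypyrimidine tract and the 3′ splice site of an intron are recognised. In most introns the U2AF heterodimer binds the tract and the terminal AG and brings in the U2 snRNP. SAP30BP is a nuclear protein that works with RBM17 (SPF45), a protein that can take the place of U2AF on short introns whose tract is cut short. An intron that stays in a polyadenylated transcript is called retained, and such a transcript often stays in the nucleus or meets a premature stop codon and is degraded by nonsense-mediated decay. Percent retention is the share of a gene's transcripts across that position that still hold the intron, and differences between groups are given in percentage points.

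The RNA came from N2a Flp-In rtTA cells, a mouse neuroblastoma line that carries a doxycycline-inducible, FLAG-tagged Sap30bp cDNA at a fixed genomic site. The cDNA of one line lacked exon 3 of Sap30bp (called here the Ex3-minus line) and that of the other held it (the Ex3-plus line). Each line was harvested 72 hours after transfection with a non-targeting siRNA pool (control), with an siRNA against Sap30bp (knockdown), or with that siRNA and doxycycline, which switches on the siRNA-resistant cDNA (rescue). Wells of a condition were pooled at harvest, and each of the 6 groups has 2 biological replicates. All groups share the Flp-In site, the rtTA and the integrated cDNA, no group received the non-targeting siRNA with doxycycline, and each isoform exists in 1 line only, so isoform and line cannot be told apart. In the authors' deposited table Sap30bp stood at 40, 21.7 and 196.5 RPKM in control, knockdown and rescue of the Ex3-minus line, and at 33.6, 18.6 and 141.3 RPKM in the Ex3-plus line, as 1 value per group. Of 12 neuroblastoma markers, 11 reached 1 RPKM, while Th stayed at or under 0.52 RPKM. The summed level of those 12 lay between 1010 and 1370 RPKM over the groups, that of 8 fibroblast markers between 1.73 and 4.52, that of 5 glial markers between 7.16 and 10.5 and that of 4 immune markers between 0.87 and 2.69 RPKM. The inclusion table gives no read numbers here, so the depth behind each percentage is unknown, and between 203635 and 231483 entries carried a value per library. In bulk RNA, more retention in every cell and a larger share of cells that retain an intron cannot be told apart.

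Introns of this length are short enough to be printed whole, and those with the largest rises are shown so that their splice sites can be seen beside their values. Of the 12 introns with the largest called rise after knockdown, 7 could be read, all from GENCODE M21 transcripts (GRCm38) that keep the intron as part of an exon. They are printed 5′ to 3′ on the strand of the gene, with the 6 bases of the 5′ splice site and the last 25 bases, which hold the end of the polypyrimidine tract and the terminal AG, in capitals. The positions are those of the authors' table on mm9, and introns were joined to transcripts by chromosome, strand and the lengths of the intron and both flanking exons.
H2-Ke6, 170 nt, chr17:34163171-34163340, minus strand: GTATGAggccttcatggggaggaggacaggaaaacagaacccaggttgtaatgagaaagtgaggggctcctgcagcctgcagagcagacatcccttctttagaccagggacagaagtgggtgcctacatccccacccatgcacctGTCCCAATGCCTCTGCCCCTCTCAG
Plxna3, 134 nt, chrX:71581206-71581339, plus strand: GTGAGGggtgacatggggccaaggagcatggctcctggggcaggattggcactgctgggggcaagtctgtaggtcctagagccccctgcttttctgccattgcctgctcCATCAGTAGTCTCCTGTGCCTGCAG
Dgat1, 128 nt, chr15:76334651-76334778, minus strand: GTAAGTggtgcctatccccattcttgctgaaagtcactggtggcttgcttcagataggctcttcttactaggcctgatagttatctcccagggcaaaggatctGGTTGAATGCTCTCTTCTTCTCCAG
Dgat1, 142 nt, chr15:76334403-76334544, minus strand: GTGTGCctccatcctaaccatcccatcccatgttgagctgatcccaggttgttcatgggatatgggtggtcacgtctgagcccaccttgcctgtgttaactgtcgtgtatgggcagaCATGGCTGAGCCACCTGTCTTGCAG
Adck5, 101 nt, chr15:76424482-76424582, plus strand: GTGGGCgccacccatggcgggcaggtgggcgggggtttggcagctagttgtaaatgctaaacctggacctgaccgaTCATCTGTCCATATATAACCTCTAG
Rogdi, 131 nt, chr16:5012389-5012519, minus strand: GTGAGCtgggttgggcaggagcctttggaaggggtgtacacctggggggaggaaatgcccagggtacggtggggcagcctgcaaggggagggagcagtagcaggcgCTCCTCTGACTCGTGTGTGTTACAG
Dus3l, 197 nt, chr17:56907574-56907770, plus strand: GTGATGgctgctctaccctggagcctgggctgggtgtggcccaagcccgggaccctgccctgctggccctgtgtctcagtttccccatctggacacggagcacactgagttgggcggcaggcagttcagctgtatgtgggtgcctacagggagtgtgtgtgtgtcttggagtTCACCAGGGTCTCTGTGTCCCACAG

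All 7 begin with GT and end with AG. Pyrimidines made up 16 of the 21 bases that precede the last 4 in H2-Ke6, 15 in the 128 nt intron of Dgat1 and in Rogdi, 14 in Plxna3, Adck5 and Dus3l, and 13 in the 142 nt intron of Dgat1. The longest unbroken run of pyrimidines in the last 40 bases differed more, with 14 bases in the 128 nt intron of Dgat1, 8 in H2-Ke6 and 4 in its 142 nt neighbour in Dgat1. Over the 594 members whose sequence could be read, the median pyrimidine share of that window was 71.4% (quartiles 63.1% and 81.0%), and 586 of the 594 began with GT and ended with AG. A comparison of base composition between introns that moved and introns that did not is void, because the 594 are 28.2% of the members. Each of the 7 printed introns also holds a stop codon in the frame of the upstream exon. In Rogdi the first one starts at base 2 of the intron, in Plxna3 at base 9, in the 142 nt and 128 nt introns of Dgat1 at bases 15 and 28, in Adck5 at base 58, in H2-Ke6 at base 60 and in Dus3l at base 106. Of the introns with a readable sequence and frame, 17 of 25 called introns (68.0%) and 449 of 548 other members (81.9%) held such a stop, and this comparison is void for the same reason.

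Retention of this class was low in control cells and higher after knockdown in both lines. The median over the 2106 introns was 3.41% and 4.81% in the control libraries of the Ex3-minus line and 4.81% and 7.18% in its knockdown libraries. In the Ex3-plus line it was 3.57% and 4.46% in control and 5.45% and 6.98% after knockdown. After rescue the medians were 3.51% and 5.04% in the Ex3-minus line and 5.52% and 5.44% in the Ex3-plus line. In 5 of the 6 groups replicate 2 was the higher library, so the lower knockdown library of the Ex3-minus line did no more than equal its higher control library. The rescue group of the Ex3-plus line had nearly equal libraries, and its level of replicate 1 was the highest of all 6 replicates with that number. The number of introns with a group mean of at least 50% went from 30 in control to 49 after knockdown and 30 after rescue in the Ex3-minus line, and from 27 to 56 and 35 in the Ex3-plus line. Replicates of a group differed by a median of 1.91 to 2.86 points per intron.

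**Figure D1:**
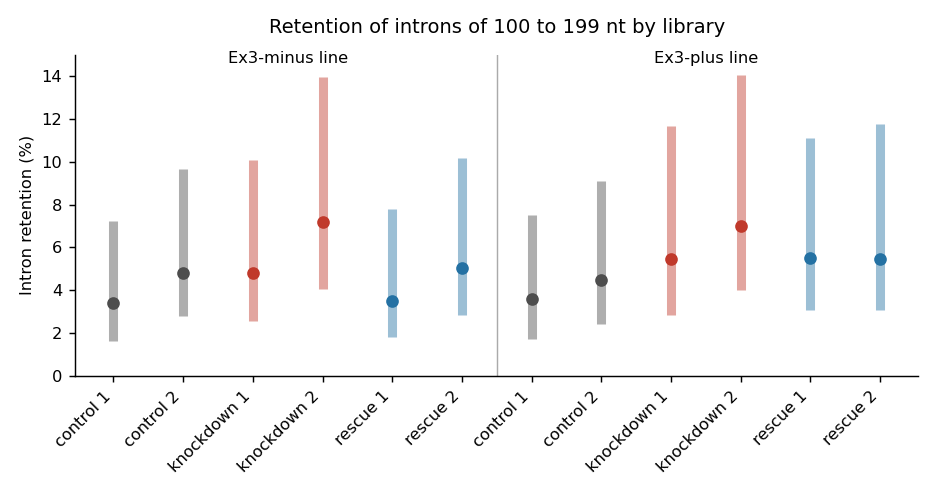
Retention of the 2106 introns of 100 to 199 nt in each of the 12 libraries: the point is the median and the bar runs from the lower to the upper quartile (y axis, percent retention; x axis, libraries by condition and replicate number, grey control, red knockdown, blue rescue). The knockdown medians, 4.81% to 7.18%, lie at or above both control medians of the same line, and the replicates of most groups stand apart.

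Knockdown raised retention of 49 of the 2106 introns and lowered 1. Each of the 49 passed an adjusted p under 0.05 (limma over all 28980 events, Benjamini-Hochberg) with a difference of at least 15 points in the mean of both lines. They make up 2.33% of the class, against 1% of all events and 1.49% of all introns called higher, and against 0.483% of all events called lower. The rises ran from 15.1 to 50.1 points with a median of 21.3, and the 49 introns lie in 42 genes. The whole class shifted by less: the median difference was 1.93 points (quartiles 0.46 and 4.53) with 82.1% of introns above 0, beside 0.82 points and 64.9% over all introns. All 4 knockdown libraries lay above all 4 control libraries in 390 introns of the class (18.5%), beside 10.5% of all introns, and below them in 17 (0.807%), beside 2.41%. The limit on the mean includes the knockdown libraries. The control mean was under 2% for 379 members in the Ex3-minus and 409 in the Ex3-plus line, so these shifts are partly set by the choice of members. All introns passed the same limit. The count of called introns depends on single libraries: it was 16, with the 1 that fell included, without replicate 1 of the Ex3-minus control, 30 without replicate 2 of that group, 20 without replicate 2 of the Ex3-minus knockdown, and 15 and 32 without replicates 1 and 2 of the Ex3-plus control. Without any 1 of the 12 libraries all 49 kept a positive difference, of at least 11.3 points, and 14 were called in all 12 such fits: those of Slc26a10, Pan2, H2-Ke6, Plxna3, Dcaf15, Reep4, Lrdd, Ulk3, Cc2d1b, Ipo13, Dapk1 and Trmt1, the 142 nt intron of Dgat1 and the 197 nt intron of Dus3l.

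The share of called introns was lower in this class than among shorter introns and higher than among longer ones. Of 1958 introns under 100 nt, 149 were called higher (7.61%) with a median difference of 3.52 points, and of 3158 introns of 200 to 499 nt, 34 were (1.08%) with a median of 0.78 points. From 500 to 999 nt the share was 0.467% and the median 0.36 points, and from 1000 nt it was 0.127% and 0.30 points. The same order held for introns whose 4 knockdown libraries lay above the 4 control libraries, with 37.8% under 100 nt, 18.5% here and 8.58% from 200 to 499 nt. Inside the class the share did not fall steadily with length: 15 of 591 introns of 100 to 119 nt were called (2.54%), 7 of 426 of 120 to 139 nt (1.64%), 11 of 395 of 140 to 159 nt (2.78%), 10 of 339 of 160 to 179 nt (2.95%) and 6 of 355 of 180 to 199 nt (1.69%). The median difference went from 2.19 points in the shortest of these bins to 1.60 and 1.76 in the longest. These shares and medians describe the classes, and no test compared one class with another.

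**Figure D2:**
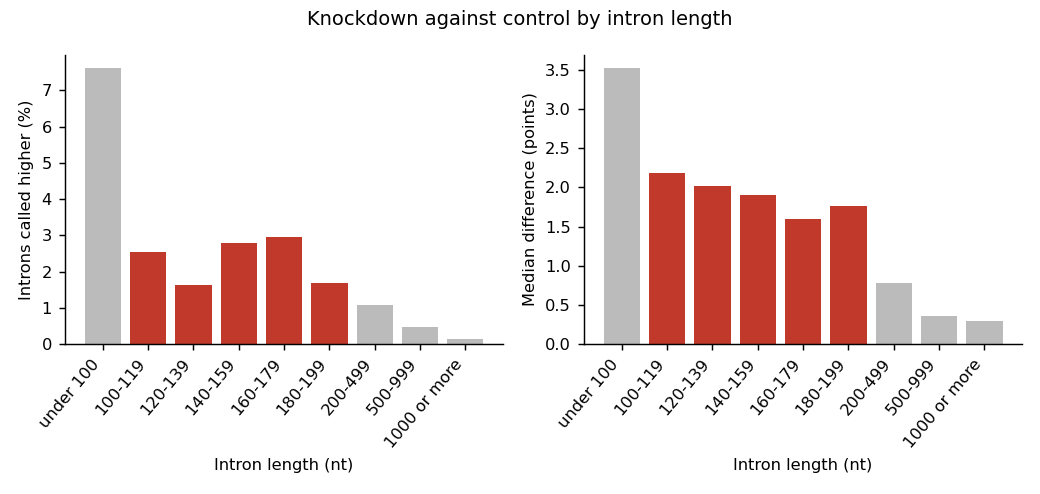
Share of introns called higher after knockdown (left, percent of introns) and median difference between knockdown and control (right, percentage points) by intron length in nt, with introns of 100 to 199 nt in red in 5 bins and other introns in grey. The share is 7.61% under 100 nt, between 1.64% and 2.95% in the red bins and 1.08% from 200 to 499 nt.

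Among the called introns, those in genes for RNA decay and tRNA modification were described first, since their lists held the most, 3 and 4. Pan2 encodes the catalytic subunit of the PAN2-PAN3 deadenylase, which starts shortening poly(A) tails. Its 141 nt intron (intron 12, chr10:127751098-127751238) was retained at 11.0% and 17.1% in control and at 42.2% and 68.4% after knockdown of the Ex3-minus line. In the Ex3-plus line it stood at 16.5% and 12.8% in control and at 71.3% and 51.6% after knockdown. All 4 knockdown libraries were above all 4 control libraries, and the rise was 44.0 points (SE 5.7, limma adjusted p = 0.00462). The next intron of Pan2, of 131 nt, started far higher, at 54.0% ± 10.8 and 60.8% ± 12.0 in the control groups (SD, n = 2), and its difference of 15.5 points (SE 6.1) missed the threshold (limma adjusted p = 0.193).

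Skiv2l encodes the RNA helicase of the SKI complex, which feeds mRNA into the cytoplasmic exosome. Intron 9 of Skiv2l (199 nt, chr17:34983613-34983811) was at 3.65% and 4.84% in control and at 16.1% and 32.6% after knockdown of the Ex3-minus line, and at 7.69% and 8.64% in control and at 36.4% and 37.5% after knockdown of the Ex3-plus line, a rise of 24.4 points (SE 4.9, limma adjusted p = 0.0227). The groups did not overlap in either line. Intron 8 of the same gene (147 nt) rose by 22.2 points (SE 4.3, limma adjusted p = 0.0195) from control means of 30.8% ± 2.3 and 26.9% ± 2.7 (SD, n = 2). Introns 11 and 23 of Skiv2l, of 114 and 137 nt, differed by 11.7 and 2.3 points and were not called.

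Dus3l encodes a dihydrouridine synthase that modifies tRNA, and it was the gene with most called introns, 3 neighbours in a row. Intron 6 (197 nt) was at 30% and 37.5% in control and at 56.5% and 64.8% after knockdown of the Ex3-minus line, and at 38.5% and 38.2% in control and at 58.0% and 60.9% after knockdown of the Ex3-plus line. The difference was 24.0 points (SE 3.1, limma adjusted p = 0.00447), with no overlap between the groups. Introns 7 (104 nt) and 8 (177 nt) rose by 22.3 points (SE 4.6) and 17.6 points (SE 4.2), with limma adjusted p-values of 0.0253 and 0.0428. The 3 introns shared high control levels, with means between 32.6% and 47.3%. Introns 4, 9 and 10 of Dus3l, with control means between 3.0% and 9.4%, differed by 9.7, 5.4 and 7.2 points and were not called. Trmt1, which encodes a tRNA guanine dimethyltransferase, had an intron of 139 nt at 7.37% and 9.45% in control and at 26.6% and 31.4% after knockdown of the Ex3-minus line, and at 12.3% and 9.24% in control and at 25.9% and 21.4% after knockdown of the Ex3-plus line. That difference was 16.8 points (SE 2.6, limma adjusted p = 0.00787).

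The next introns, in genes for enzymes of lipid and nucleotide metabolism, were grouped after the calls were seen. No list of such genes was counted. Dgat1, which encodes an acyltransferase of the last step of triglyceride synthesis, had 2 neighbouring called introns, both printed above. Its 128 nt intron 5 was at 5.00% and 18.8% in control and at 48.5% and 67.9% after knockdown of the Ex3-minus line, and at 9.38% and 22.2% in control and at 38.5% and 54.8% after knockdown of the Ex3-plus line. Its 142 nt intron 6 went from 20.4% and 21.9% to 44.3% and 59.2% in the first line and from 10.1% and 23.2% to 53.6% and 67.6% in the second. The rises were 38.6 points (SE 6.5, limma adjusted p = 0.0113) and 37.3 points (SE 5.9, limma adjusted p = 0.00911), and in both introns every knockdown library was above every control library. H2-Ke6, which encodes a mitochondrial dehydrogenase of fatty acid synthesis, had its last intron at 25.8% and 36.5% in control and at 66.7% and 70.4% after knockdown of the Ex3-minus line, and at 31.1% and 36.7% in control and at 76.7% and 77.1% after knockdown of the Ex3-plus line. The rise was 40.2 points (SE 3.3, limma adjusted p = 0.00103), and the lowest knockdown library stood far above the highest control library. Nt5c, a nucleotidase gene, had called introns of 170 and 108 nt, which rose by 21.7 points (SE 4.6) and 17.1 points (SE 4.1), with limma adjusted p-values of 0.0287 and 0.0447.

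Genes of the cell surface and of signalling followed, also put together after the calls were seen. Slc26a10, of the SLC26 family of anion transporters, had the largest rise of the class. Its 115 nt intron 11 (chr10:126611225-126611339) was nearly fully spliced in control, at 5.51% and 6.06% in the Ex3-minus and 3.12% and 1.37% in the Ex3-plus line. After knockdown it was at 58.5% and 42.9% in the first line and at 65.2% and 50% in the second, a rise of 50.1 points (SE 5.2, limma adjusted p = 0.00274). Plxna3 encodes a plexin, a receptor for semaphorins in axon guidance. Its 134 nt intron 12 was at 20.9% and 27.3% in control and at 51.7% and 67.0% after knockdown of the Ex3-minus line, and at 12.6% and 27.5% in control and at 57.6% and 66.4% after knockdown of the Ex3-plus line. The rise was 38.6 points (SE 5.2, limma adjusted p = 0.00475) with no overlap. Introns 26, 10 and 15 of Plxna3 differed by 19.4, 16.6 and 9.7 points in the same direction but missed the threshold, with limma adjusted p-values of 0.0669, 0.175 and 0.0945.

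Pitpnm1, which encodes a phosphatidylinositol transfer protein, had called introns of 182 nt, with a rise of 23.9 points (SE 4.2, limma adjusted p = 0.0133), and of 167 nt, with a rise of 15.6 points (SE 2.7, limma adjusted p = 0.0121). The kinase gene Dapk1 had the most even values of all called introns, and it is named here after its values were seen. Its 158 nt intron 5 went from 1.83% and 1.62% in control to 19.5% and 20.2% after knockdown of the Ex3-minus line and from 1.10% and 1.37% to 20.2% and 19.4% in the Ex3-plus line. The rise was 18.4 points (SE 1.6, limma adjusted p = 0.00103). Leaving out any 1 of the 12 libraries gave values between 18.2 and 18.6 points.

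The remaining large rises lay in genes of mixed function. Dcaf15 encodes a substrate receptor of a cullin-RING ubiquitin ligase, and its last intron (114 nt) was already retained in most transcripts of the Ex3-minus control, at 62.2% and 67.2%, and went to 91.2% and 85.4%. In the Ex3-plus line it went from 43.6% and 54.1% to 76.1% and 85.2%, and the mean rise was 27.7 points (SE 3.2, limma adjusted p = 0.00329). Adck5, a mitochondrial kinase-like gene, had a 101 nt intron that went from 22.2% and 27.4% to 32.6% and 46.8% in the Ex3-minus line and from 9.09% and 15.5% to 45.5% and 60% in the Ex3-plus line, also a rise of 27.7 points (SE 4.7, limma adjusted p = 0.0115). Rogdi, which is linked to assembly of the vacuolar proton pump, had a 131 nt intron with control libraries between 7.32% and 14.3% and knockdown libraries spread from 21.2% to 58.3%, a rise of 25.7 points (SE 5.6, limma adjusted p = 0.0321). Adck5 and Rogdi lost their call in 2 and 5 of the 12 fits without 1 library. The 2 called introns of Mst1, which encodes a plasma protein of the plasminogen family, were retained in most transcripts of control cells, with control means between 55.9% and 73.5% and rises of 21.5 points (SE 4.6) and 20.9 points (SE 4.6), at limma adjusted p-values of 0.0292 and 0.034.

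**Figure D3:**
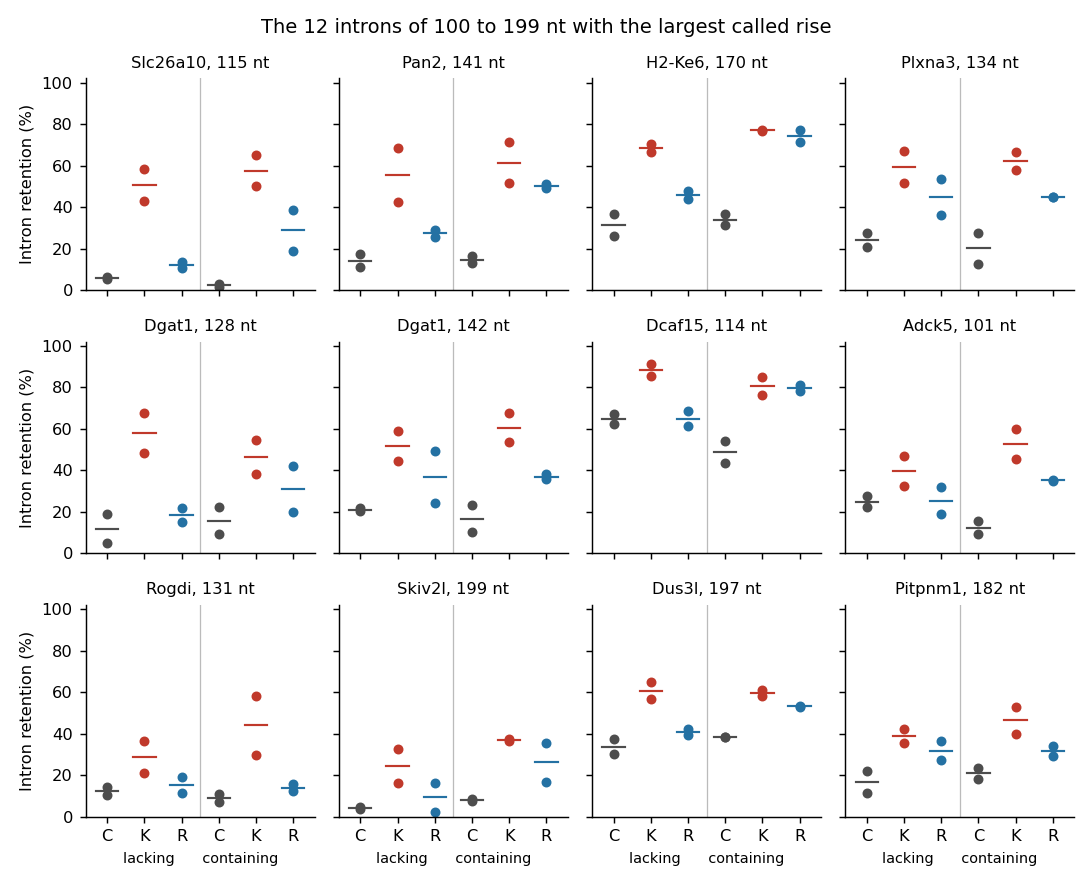
Percent retention in every library for the 12 introns with the largest called rise (y axis, percent; x axis, control C, knockdown K and rescue R of the Ex3-minus line on the left and of the Ex3-plus line on the right of each panel; points are libraries, bars are means of 2). All knockdown means lie above the control means of the same line, and the rescue means lie below the knockdown means, closely so for H2-Ke6 and Dcaf15 in the Ex3-plus line.

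The smallest called rises lay just over 15 points, in Llgl1, Lrrc16b and Tmco6 with 15.1 points each and in BC090627 with 15.2. Llgl1, a cell polarity gene, had a 178 nt intron that went from 1.58% and 6.85% to 9.04% and 24.3% in the Ex3-minus line and from 1.86% and 2.40% to 20.3% and 19.4% in the Ex3-plus line. Tmco6 is the 1 called intron whose groups overlapped: a control library of the Ex3-minus line stood at 25.6% and a knockdown library of that line at 23.1%. The single intron called lower lay in Ddx26b, a gene related to a subunit of the Integrator complex. Its 132 nt intron (chrX:53708494-53708625) fell from 54.4% and 69.8% in control to 34.4% and 29.7% after knockdown of the Ex3-minus line and from 61.1% and 50% to 36.4% and 34.3% in the Ex3-plus line. The groups did not overlap, and the difference was -25.1 points (SE 4.1, limma adjusted p = 0.0103). An intron of 196 nt in the SR protein gene Srsf1 had the same sign, with means of 16.7% ± 0.9 and 15.7% ± 1.8 in control and 8.1% ± 2.3 and 7.7% ± 3.9 after knockdown (SD, n = 2), and missed the threshold at -8.3 points (SE 2.1, limma adjusted p = 0.0528).

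Each line alone, with 2 libraries against 2, gave far fewer calls. In the Ex3-minus line 2 introns were called higher, beside 0.0173% of all events, and in the Ex3-plus line 10, beside 0.197%. The median difference of the class was 1.76 points in the first and 2.23 in the second line. The first fell to 0.62 points without replicate 2 of the Ex3-minus knockdown and was 2.67 without replicate 1 of that group, and the second was 1.42 without replicate 2 of the Ex3-plus knockdown. The 2 called in the Ex3-minus line were those of H2-Ke6 and Dapk1, named after their values were seen, and both were also called in the Ex3-plus line. No member was called for a difference of the knockdown effect between the lines (0% of all events called), and 53 had an unadjusted p under 0.05 (2.52%, beside 3.2% of all events). All 49 introns called over both lines had a positive difference in each line, which is largely set by their choice on the mean of both lines. The 193 nt intron of the kinase gene Ulk3 was the most uneven of the 49: it rose by 38.4 points in the Ex3-plus line (limma adjusted p = 0.0154 for that line), with control libraries at 19.1% and 30.2% and knockdown libraries at 60.9% and 65.1%, and in the Ex3-minus line it stood at 33.8% and 37.3% in control and 39.0% and 40.6% after knockdown. The authors' deposited table called 45 members higher and 2 lower after knockdown in the Ex3-minus line, beside 1.01% and 0.449% of all events. In the Ex3-plus line it called 73 higher and 1 lower, beside 1.37% and 0.631%. Of the 49 introns, 43 were among the authors' calls of at least 1 line and 26 among those of both.

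**Figure D4:**
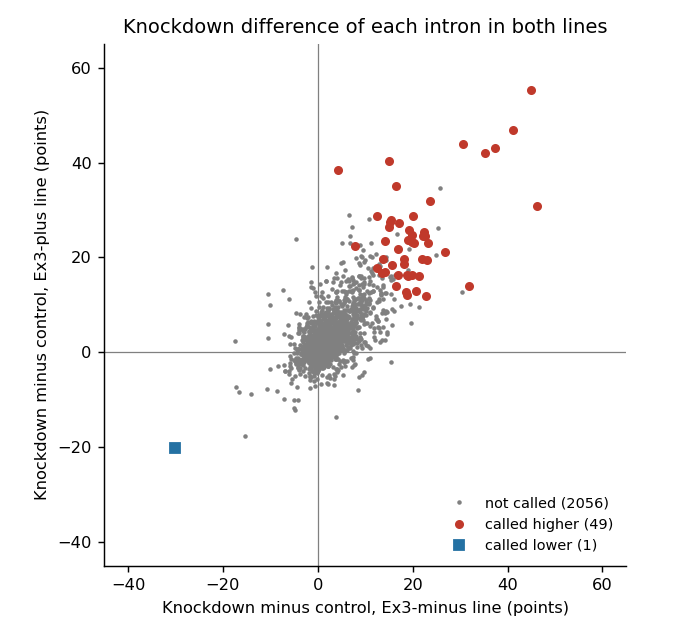
Difference between knockdown and control of each of the 2106 introns in the Ex3-minus line (x axis, percentage points) and in the Ex3-plus line (y axis, percentage points), on equal scales. The 49 introns called higher (red circles) are positive in both lines, and the 1 called lower (blue square, Ddx26b) is negative in both. These signs are largely set by the choice of called introns on the mean of both lines.

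The size of the knockdown difference went with how much of the intron was retained before knockdown. To keep the level and the difference on separate libraries, introns were sorted by the control mean of one line and their difference was read in the other. Among 379 introns under 2% in the Ex3-minus control, the median difference in the Ex3-plus line was 1.97 points and 0.264% of them gained 15 points or more. An intron under 2% in control belongs to the class only where its other libraries bring the mean to 2%, so the differences of this lowest bin are partly set by the choice of members. The median was 1.43 points for 845 introns at 2% to 5%, 2.68 points for 444 at 5% to 10%, 5.97 points for 265 at 10% to 20% and 11.1 points for 143 at 20% to 50%, where 35.0% gained 15 points or more. With the lines exchanged, the medians went from 1.78 points for 409 introns under 2%, set in part by that same choice, to 6.92 points for 125 introns at 20% to 50%, and the share with 15 points or more went from 0.489% to 19.2%. The few introns over 50% were less even, with a median of 8.18 points for 30 introns in the first and 9.56 points for 27 in the second reading. A threshold in points is harder to reach for an intron near 0. The intron of Slc26a10, at 6.06% or less in every control library, started low all the same.

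Some genes held more than 1 called intron, and whether this differs from an even spread over genes was not tested. Of the 1276 genes, 823 had 1 member and 453 had 2 or more, up to 9, and 6 genes held 13 of the 49 called introns: Dus3l with 3 and Dgat1, Pitpnm1, Skiv2l, Nt5c and Mst1 with 2 each. Introns of 1 gene share their transcripts and are not independent. The 42 genes with a called intron had 67 other members, of which 59 had a positive difference, beside 82.1% of the whole class. Their median was 3.36 points, beside 1.84 points over the members of genes with no called intron. In Dus3l, Dgat1 and Skiv2l the called introns were next to each other, and within Dus3l the other introns of this length started lower and moved less.

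Gene lists written from general knowledge held 10 of the 49 called introns. Over the whole class 2.33% were called higher, the share to set beside each count. Of 40 introns in 20 genes of tRNA and rRNA modification and tRNA charging, 4 were called higher, the 3 of Dus3l and that of Trmt1, with a list median of 3.53 points. Of 30 introns in 14 genes of cleavage, polyadenylation and mRNA decay, 3 were called, in Pan2 and Skiv2l, with a median of 2.38 points. Ion channels and solute carriers gave 2 of 49 introns, in Slc26a10 and Slc9a5, with a median of 2.60 points, and adhesion and guidance receptors gave 1 of 37, in Plxna3, with a median of 2.89 points. No intron was called among 49 of chromatin genes (median 0.82 points), 34 of DNA replication and repair (1.94), 30 of lysosomal and vesicle enzymes (2.81), 24 of tubulin and motor genes (1.68), 14 of the core spliceosome (2.08), 10 of SR and hnRNP proteins (2.15) and 7 of 3′ splice site recognition and the U2 snRNP (1.26). These medians stand beside 1.93 points over all members and 0.82 points over all introns, and no list was tested. Genes outside the lists can belong to the same functions: called introns of the histone demethylase gene Kdm4b (21.6 points) and of the lysosomal membrane gene Cln3 (15.5 points), both named after their values were seen, were in none of them.

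In the lists of splicing genes no intron was called, though some passed the adjusted p alone. Prpf40b encodes a U1 snRNP-associated protein, and its 100 nt intron was at 2.3% ± 0.6 in control and 14.0% ± 7.2 after knockdown of the Ex3-minus line and at 3.2% ± 2.1 and 12.6% ± 6.8 in the Ex3-plus line (SD, n = 2). Its difference of 10.5 points passed the adjusted p (0.0449, limma) but not the 15 points asked for. The 110 nt intron of the helicase gene Ddx41 passed it too, at only 6.0 points (SE 1.1, limma adjusted p = 0.0168). Its control means were 0.7% in the Ex3-minus and 1.0% in the Ex3-plus line, under the 2% limit on the mean. Higher values in other libraries made it a member, so the direction of its difference was partly set by that choice. Other introns of these genes did not pass: 144 nt in Prpf40b with 10.7 points and 147 nt in Ddx41 with 5.9 points. Their limma adjusted p-values were 0.292 and 0.169. Hnrnpm had a 117 nt intron at 47.3% ± 0.6 and 51.2% ± 0.2 in control and 58.2% ± 2.5 and 61.7% ± 2.0 after knockdown (SD, n = 2), with a difference of 10.6 points (SE 2.7, limma adjusted p = 0.0574). Among factors of 3′ splice site recognition, introns of Cherp differed by 3.9 and 1.9 points, that of U2af1l4 by 1.8 and that of Sugp1 by -1.3, with limma adjusted p-values of 0.316, 0.599, 0.776 and 0.673.

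In median length, exon lengths, position and host gene level the 49 called introns were near the rest of the class. Their median length was 146 nt, beside 141 nt for the other 2057, and the flanking exons had medians of 114 and 111 nt upstream and downstream, beside 115 and 121 nt. The host genes had a median of 22.7 RPKM, beside 24.6 RPKM, and a lower upper quartile, 27.9 beside 40.4 RPKM. Both sets had a median position of intron 8 in transcripts with a median of 15 introns, where 46 of the 49 and 1899 of the other members could be placed on GENCODE. All 46 lay between coding exons, as did 98.5% of the others. Length was a multiple of 3 in 11 of the 49 (22.4%) and in 30.6% of the others. A difference appeared in the annotation of retention itself: a GENCODE transcript holds the whole intron as exon for 25 of 46 called introns (54.3%) and for 569 of 1899 others (30%). Which introns were called and how much they are retained go together, as given above, and none of these features was tested.

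Expression of the host genes was compared between called introns and other members. In the authors' deposited table the median log2 fold change of the hosts after knockdown was -0.16 in the Ex3-minus line, beside -0.02 for hosts of the other members, and -0.19 in the Ex3-plus line, beside -0.09. Of the 49 introns, 1 had a host that the authors' deposited table called higher in the Ex3-minus line, Trmt1 with a log2 fold change of 0.71 (FDR 0.0164), which is 2.04% beside 0.835% of other members. In the Ex3-plus line 1 had a host that the authors' deposited table called lower, 1700019N12Rik with -1.11 (FDR 0.0033), which is 2.04% beside 5.80%. None was called lower in the Ex3-minus line, beside 2.46% of other members, or higher in the Ex3-plus line, beside 0.835%. These shares were not tested against each other.

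After rescue the called introns were retained less than after knockdown in both lines, though none passed the threshold for that difference on its own. Among the 49 introns the median of the group means in the Ex3-minus line went from 19.9% in control to 40.2% after knockdown and 27.1% after rescue, and in the Ex3-plus line from 17.9% to 46.4% and 31.7%. The mean after rescue was below the mean after knockdown for all 49 introns in each line, which is partly fixed by the choice of the 49 on high knockdown values. Both rescue libraries lay below both knockdown libraries for 43 introns in the Ex3-minus and 34 in the Ex3-plus line. Both lay above both control libraries for 25 and 38 introns. The rescue mean was nearer to knockdown than to control for 10 introns in the Ex3-minus line and 26 in the Ex3-plus line. All these counts are partly set by the choice of the 49 on a large difference between knockdown and control. Rescue minus knockdown was above 0 for only 25.7% of all introns in the Ex3-minus and 45.8% in the Ex3-plus line. A lower mean after rescue was thus not particular to the 49. Shares of the other counts over all introns were not counted.

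**Figure D5:**
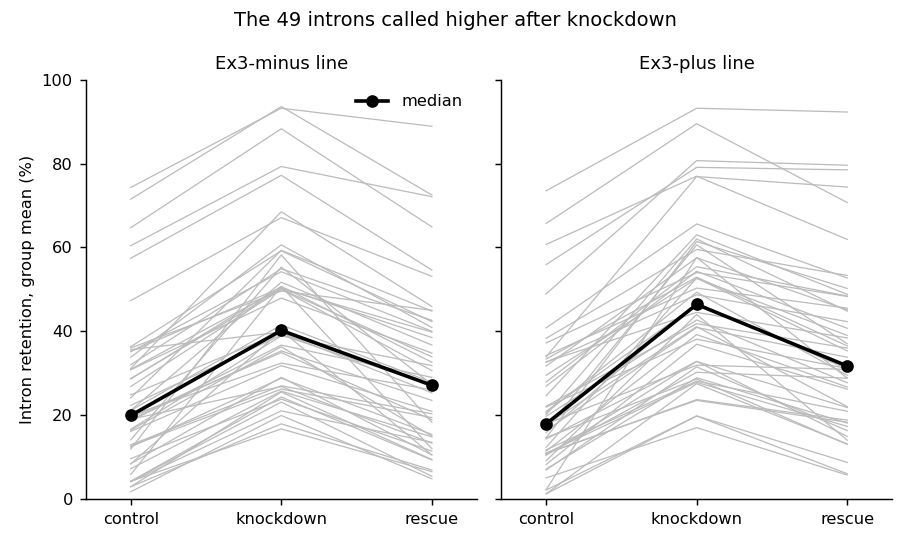
Group means of the 49 introns called higher after knockdown (y axis, percent retention; x axis, condition) in the Ex3-minus line (left) and the Ex3-plus line (right), with 1 grey line per intron and the median in black. The median goes from 19.9% to 40.2% and 27.1% on the left and from 17.9% to 46.4% and 31.7% on the right.

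Since the 49 were chosen on the same knockdown libraries, the rescue was also read on introns that the authors' deposited table called in the opposite line. The 73 members called in the Ex3-plus line stood in the Ex3-minus line at medians of 20.4% in control, 34.9% after knockdown and 25.3% after rescue. Their median rescue-minus-knockdown difference was -11.9 points beside a median knockdown-minus-control difference of 14.9, the median that remained between rescue and control was 4.9 points, and the rescue mean was below the knockdown mean in 67 of 73. The 45 members called in the Ex3-minus line stood in the Ex3-plus line at 19.7%, 44.5% and 36.0%. There the median rescue-minus-knockdown difference was -7.1 points beside a knockdown-minus-control median of 21.1, the median that remained between rescue and control was 11.3 points, and the rescue mean was below the knockdown mean in 41 of 45. These are different introns in each line, so the values are given side by side and were not compared. The counts of 67 of 73 and 41 of 45 stand beside a wider fall after rescue. Rescue minus knockdown was above 0 for only 25.7% of all introns in the Ex3-minus and 45.8% in the Ex3-plus line.

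Over the whole class no intron was called for rescue against knockdown by limma, in the Ex3-minus line (0.00345% of all events called) or in the Ex3-plus line (0%). At an unadjusted p under 0.05 there were 241 introns in the first line (11.4%, beside 8.57% of all events) and 139 in the second (6.60%, beside 6.84%). The median difference was -1.61 points in the Ex3-minus and -0.64 points in the Ex3-plus line, beside -1.38 and -0.24 points over all introns. The first of these moved to -0.48 points without replicate 2 of the Ex3-minus knockdown, the library with the highest retention of its line, and to -2.54 without replicate 1 of that group and -1.06 without replicate 1 of the Ex3-minus rescue. The second turned to 0.18 points without replicate 2 of the Ex3-plus knockdown and was -1.24 without replicate 1 of that group. The authors' deposited table called 22 members lower after rescue in the Ex3-minus line, beside 0.676% of all events, and 7 in the Ex3-plus line, beside 0.166%. It called none higher, beside 0.069% and 0.0759% of all events in these lines.

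Rescue against control gave no limma call either, in the Ex3-minus line (0.00345% of all events called) or the Ex3-plus line (0%). At an unadjusted p under 0.05 there were 69 introns (3.28%, beside 5.58% of all events) and 183 introns (8.69%, beside 8.39%). The class as a whole stood 0.19 points above control after rescue in the Ex3-minus line and 1.60 points above it in the Ex3-plus line, while all introns stood at -0.57 and 0.82 points. Leaving out 1 library, the first of these ran from -0.63 points without replicate 2 of the Ex3-minus rescue to 0.94 without replicate 2 of the Ex3-minus control and the second from 1.27 to 2.16. The authors' deposited table had 5 members called higher and 3 lower than control after rescue in the Ex3-minus line, beside 0.0863% and 0.321% of all events. In the Ex3-plus line it had 23 called higher and 0 lower, beside 0.5% and 0.286%.

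Named introns showed rescue of unequal extent. The intron of Slc26a10 came back to 13.3% and 10.7% in the Ex3-minus line and to 38.8% and 18.8% in the Ex3-plus line, below both knockdown libraries in each. That of Pan2 came back to 25.6% and 29.0% in the first line, while in the second it stood at 49.4% and 51.0%, just below its lower knockdown library at 51.6%. Rogdi was near its control level in both lines, at 11.5% and 19.2% in the first and at 15.8% and 12.2% in the second. H2-Ke6 was at 47.8% and 44.0% after rescue in the Ex3-minus line, between control and knockdown, and at 71.4% and 77.3% in the Ex3-plus line, a range that holds both of its knockdown libraries there. Both introns of Mst1 had the same uneven pattern, with rescue means of 54.6% ± 0.8 and 72.5% ± 10.3 in the Ex3-minus line, close to control, and of 78.5% ± 11.5 and 92.3% ± 4.4 in the Ex3-plus line, close to knockdown (SD, n = 2). The intron of Ddx26b, which had fallen, was at 44.0% and 46.5% after rescue in the first and at 49.6% and 42.9% in the second line, between control and knockdown.

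The difference between the lines in rescue against knockdown passed the threshold for no member (0.00345% of all events called). There were 107 members with an unadjusted p under 0.05, 5.08% of the class and close to the 5.27% of all events. The median of this difference was 0.93 points in the class and 1.20 over all introns, and without any 1 library it ran from -0.10 to 1.95 in the class. Among the 49 called introns, retention after rescue was higher in the Ex3-plus line for 41, after knockdown for 30 and in control for 23. This direction was not particular to the 49. Over all introns the rescue libraries had medians of 4.68% and 5.02% in the Ex3-plus line and 2.82% and 4.49% in the Ex3-minus line. The line difference in rescue against knockdown was above 0 for 63.1% of the class and 66.4% of all introns. The largest differences under an unadjusted p of 0.01 lay in Hdac10, Dcaf15 and Sirt7. The 166 nt intron of Hdac10, a polyamine deacetylase gene, went from 39.1% and 28.7% after knockdown to 13.0% and 17.2% after rescue in the Ex3-minus line and from 31.3% and 23.1% to 29.3% and 36.8% in the Ex3-plus line, a difference of 24.6 points (SE 7.4, limma adjusted p = 0.928). Dcaf15 was at 61.5% and 68.4% after rescue in the Ex3-minus line, its control level, and at 81.0% and 78.2% in the Ex3-plus line, its knockdown level, a difference of 22.3 points (SE 6.4, limma adjusted p = 0.928).

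The 142 nt intron of the deacylase gene Sirt7 differed by 21.3 points (SE 6.5, limma adjusted p = 0.928), with no rise after knockdown in the Ex3-plus line, at means of 21.7% ± 0.6 and 22.6% ± 1.5 (SD, n = 2). In the opposite direction were the introns of Tbc1d25, which encodes a Rab GTPase-activating protein, with -21.9 points (SE 6.3) and of the calcium channel gene Cacna1a with -5.2 points (SE 1.7), both at a limma adjusted p of 0.928. A related intron in the same gene need not follow: the 130 nt intron of Hdac10 was at 10.6% ± 1.4 and 10.6% ± 3.0 after rescue in the lines (SD, n = 2).

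The lines did not differ by any called intron in control (0% of all events called), and 44 members had an unadjusted p under 0.05 (2.09%, beside 4.24% of all events). The median difference, Ex3-plus minus Ex3-minus, was -0.18 points, beside -0.24 over all introns. It turned to 0.58 points without replicate 2 of the Ex3-minus control and to 0.14 without replicate 1 of the Ex3-plus control, and was -0.82 and -0.75 without the other replicate of each group. The highest control levels belonged to Solh, Nol8, Ankrd13b and 1600012H06Rik. Nol8, whose 131 nt first intron lies in a UTR, stayed at 95.9% ± 3.1 and 91.7% ± 2.4 in the Ex3-minus and 90.2% ± 4.3 and 94.3% ± 1.8 in the Ex3-plus line (SD, n = 2), a difference of 0.0 points (SE 2.1, limma adjusted p = 0.995). The lowest control levels belonged to Abca7, Man2b1, Agap3 and Acss2. Such introns are members only through higher values after knockdown or rescue, so the direction of their differences was set by the choice of members. The 183 nt intron of Agap3, a GTPase-activating protein gene, went from 0.40% and 0.34% in control to 7.69% and 8.06% after knockdown of the Ex3-minus line and from 0% and 0% to 7.84% and 10.1% in the Ex3-plus line, a difference of 8.2 points that passed the adjusted p (0.00329, limma) but not the 15 points asked for. The intron of Acss2, an acetyl-CoA synthetase gene, lay at or under 0.95% in its 4 control libraries, between 0% and 3.85% after knockdown and between 3.85% and 7.46% after rescue.

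The introns whose profile over the 6 group means was most like that of Slc26a10 moved far less. They were in Lonp1 (Pearson's r = 0.998 over 6 groups, 2.2 points after knockdown), Agap3 (0.997, 8.2 points), Fasn (0.997, 3.1 points), Hspg2 (0.996, 3.9 points) and Nxf3 (0.995, 3.2 points). The 6 means share the libraries of Slc26a10, and the likeness is a description of shape without a test.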

How the data were processed

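PolyA RNA of 12 libraries in 6 groups was measured. Per the labels' protocols, libraries were stranded and selected for long inserts. The authors deposited percent retention or inclusion per event and library as a vast-tools table on mm9, and neither its version nor its coverage rule is given in the sources used here. Their expression table, per the file headers, holds 1 RPKM value per group and, per comparison, a log2 fold change, p-value and FDR, with replicates combined before it was deposited. The submitters' processing notes name Salmon 0.14.1 and edgeR. A further deposited table gives the authors' splicing calls.

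Percentages were analysed because no counts accompany them. Of 401633 entries, the 37194 first sites of alternative splice site groups stayed out. Events needed 12 values and a mean between 2% and 98%. limma 3.58.1 (R 4.3.3) was fitted to 6 group means with trended, robust variance over 28980 events, and adjusted p-values are Benjamini-Hochberg over all of them. A call needed an adjusted p under 0.05 and 15 points. The fit was tested on simulated data. Replicates are separate samples per the labels, and p-values measure the spread between them. Alternatives were a replicate block, a logit scale, no limit on the mean, 10 points and each library left out. GENCODE M21 introns (GRCm38) were matched by chromosome, strand and the lengths of intron and flanking exons, for 1945 of 2106 members (92.4%). No mm9 genome was used here. Named introns are the 12 largest and 4 smallest called rises, called falls, genes with 2 called introns, the 3 largest rescue differences each way under an unadjusted p of 0.01 (only 2 were negative), the 4 highest and lowest controls, up to 4 per gene list, and the 5 profiles most like that of the largest rise. Members, lists and rules were chosen with earlier results of these data known. The inclusion table had 0 unused columns of sample values. 1 marker gene of the neuroblastoma list is not reported here.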

Additional observations from a re-analysis of the deposited data

How the results depend on the processing

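Over 25 named introns and 16 alternatives, 400 differences between knockdown and control, none changed sign, whereas counts of calls and several class medians depended on the setting. The 25 were chosen on large knockdown differences in these same libraries. A kept sign, here and for the 49 introns above, is therefore largely set by the choice. Of the 25, 18 lost their call without the limit on the mean and 6 on the logit scale. With 1 library left out, the class median turned sign for rescue against knockdown in the Ex3-plus line (-1.24 to 0.18 points), for rescue against control in the Ex3-minus line (-0.63 to 0.94), for the control difference between lines (-0.82 to 0.58) and for the line difference of the knockdown effect (-0.46 to 1.52) and of the rescue effect (-0.10 to 1.95). The median knockdown difference stayed positive, at 0.62 to 2.67 points in the Ex3-minus, 1.42 to 2.79 in the Ex3-plus line and 1.46 to 2.43 over both. The 50 members called over both lines, 49 higher and 1 lower, became 40 on a logit scale, 68 at 10 points and 14 without the limit on the mean, where 117021 events were fitted. Leaving out 1 library gave 15 to 68 calls. In the Ex3-minus line the 2 calls became 1 on the logit scale and 0 to 21 with 1 library left out, 21 without knockdown replicate 1. In the Ex3-plus line the 10 calls became 3 without the limit on the mean and 0 to 13 with 1 library left out. Rescue against knockdown in the Ex3-minus line went from 0 to 1 call without the limit on the mean and to between 0 and 3 with 1 library left out, and rescue against control in the Ex3-plus line from 0 to 1 without the limit on the mean. The cause of these changes was not tested beyond the smaller number of libraries or larger number of events. The other comparisons with 0 calls kept 0 under all alternatives run. With the replicate block the calls were 64 over both lines, 10 in the Ex3-minus and 22 in the Ex3-plus line. No label says that a replicate number marks a shared batch. Over 15 pairs of groups the correlation of replicate deviations was positive throughout, from 0.0417 to 0.310, with 12 of 15 over 0.1. The pairing asked for all 15 over 0.1, so the numbers were not treated as pairs, and whether they mark a shared day or batch was not tested. Depth is unknown, so its limits could not be given.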
